A study of Rattus norvegicus with 14 samples.

Results

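The regions described here are 83 windows of the rat genome in which mean DNA methylation at 1 week after a graft differed from unoperated oesophagus by at least 15 percentage points, while the mean at 1 day differed by less than 5. They were drawn from 14380 windows (tiles) of 1000 bp on chromosomes 1 to 20, and made up 0.577% of them. A tile was eligible with at least 3 CpG cytosines that each had 10 or more reads in at least 3 libraries of every group. Its methylation in a library was the methylated share of all reads at those of these cytosines where that library itself had 10 or more reads. Of the 83 members, 62 were lower at week 1 and 21 were higher. The members were chosen by their mean differences from the unoperated group at both times, which together fix the week 1 to day 1 difference to be over 10 points, so all 3 are described here without a test.

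Reduced representation bisulfite sequencing was applied to oesophagus of male rats aged 8 to 9 weeks. Non-surgical controls (NSC, 4 libraries) gave full-thickness oesophagus with no operation. Animals of both operated groups had an oesophageal defect repaired with an acellular bi-layer silk fibroin graft. The day 1 group (5 libraries) is host tissue punched from a rim of 2 mm around the defect, 1 day after surgery. At 1 week (day 7, 4 libraries) the new tissue in the area of the original graft was taken. Another week 1 sample was not analysed here, so 13 of 14 samples entered. Tissue site and time differ together between the operated groups and cannot be told apart. In bulk tissue a changed mixture of cells and a changed methylation within cells cannot be told apart either, and methylation data give no expression of marker genes by which the labelled tissues could be checked.

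In mammals a methyl group on the cytosine of a CpG is copied to the new strand by a maintenance methyltransferase when DNA replicates, and is lost when that copying lags or when oxidising TET enzymes act. Methylation is high over most of the genome and low at active promoters and enhancers, and it differs between cell types. In oesophageal wounds, inflammatory cells arrive first, then fibroblasts and vessels fill the defect and the squamous epithelium grows over it. The restriction enzyme MspI cuts at CCGG whatever the methylation of its CpG, so the reads cluster at CpG-rich fragments of fixed position.

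The libraries held 9676493 to 49782600 reads summed over listed cytosines, and week 1 libraries were shallower (11340709 to 26135062) than NSC libraries (26135180 to 49782600). Over all listed cytosines 56.1% to 59.3% of reads were methylated in NSC, 63.7% to 74.3% at day 1 and 58.5% to 69.4% at week 1. Day 1 replicate 2 was the shallowest library and had a value in 8 of the 62 lower and 0 of the 21 higher members. Intervals and limits below cover counting error only, and a read that spans several cytosines is counted at each.

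The members were a small share of the week 1 differences and ran mostly in the other direction. Of 14380 tiles, 2175 (15.1%) differed from NSC by 15 points or more at week 1, and the members were 3.82% of these. Lower tiles made up 74.7% of the members, against 25.2% of the 2175. Of the same 2175 tiles, 1752 differed by 15 points at both times in one direction, 1 in opposite directions, and 339 had a day 1 difference from 5 to 15 points. The converse set, with a difference of 15 points at day 1 and under 5 at week 1, held 110 tiles, of which 100 were higher and 10 lower. All these counts share the NSC libraries, and the rule itself fixes them.

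**Figure D1:**
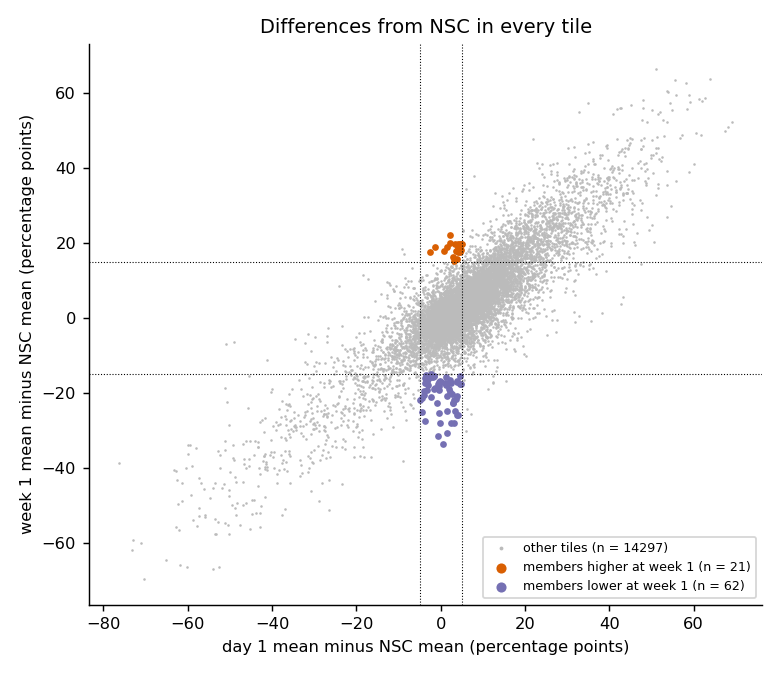
Difference of group means in every tile, with day 1 minus NSC on the horizontal axis and week 1 minus NSC on the vertical axis, both in percentage points. Grey points are the other tiles; coloured points are the 62 lower and 21 higher members, which lie between the dotted lines at 5 points of day 1 difference and beyond those at 15 points of week 1 difference.

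Among the lower members the median level was 80.2% in NSC, 82.1% at day 1 and 57.8% at week 1, with a median difference from NSC of -18.9 points and a range from -33.6 to -15.1. Among the higher members the medians were 67.4%, 69.7% and 86.7%, with a median difference of 19.0 points and a range from 15.3 to 22.2. NSC levels of 80% or more were seen in 31 of the 62 lower members and in 1 of the 21 higher members. This was the case in 44.0% of all tiles, and in 8.83% of the 2175 tiles with a week 1 difference of 15 points. Only 25.2% of those 2175 were lower. A tile close to full methylation cannot rise by 15 points, nor one close to none fall by as much, so the rule limits these levels in part. One member had an NSC level under 20%, which 21.4% of all tiles had. By their medians, the lower members went from high to intermediate methylation and the higher members from intermediate to high.

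Members lay on 19 of the 20 chromosomes, with 7 each on chromosomes 7, 10 and 12 and 0 of the 581 eligible tiles on chromosome 20. No 2 members were adjacent. Only 2 lay within 100 kb of each other, a lower and a higher member 14000 bp apart on chromosome 7, and 10 lay within 1 Mb of another. The members were also thinly measured. Of the 83 tiles, 53 (63.9%) held the minimum of 3 cytosines, against 40.1% of all tiles. The share was 47.4% in the 2175 tiles with a week 1 difference of 15 points and 56.4% in the 110 that differed at day 1 alone. The members' cytosines spanned a median of 53 bp, from 9 to 509. Median reads per tile and library were 108 in NSC, 74 at day 1 and 55 at week 1, against 151, 109 and 84 over all tiles. In the 110 tiles that differed at day 1 alone they were 122, 90 and 66. Tiles with 50 or more listed positions were 2 of 83 (2.41%), against 14.8% of all tiles.

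The 8 members with the largest decrease among those whose NSC and week 1 libraries did not overlap are called L1 to L8, and the 8 with the largest increase G1 to G8. They are shown as the largest differences among the 35 members, 27 lower and 8 higher, where the week 1 libraries stood clear of every control. Coordinates are those of mRatBN7.2, counted from 1. No gene or feature is assigned to them, because no annotation of that build was used here.

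The largest decrease of the 8 was at L1 (chr7:110469001-110470000). Its NSC libraries were at 84.6%, 84.2%, 80.6% and 88.4%, the 3 measured day 1 libraries at 73.5%, 100% and 81.8%, and the 3 measured week 1 libraries at 39.6%, 43.3% and 69.7%. The group means were 84.4% ± 3.20 (SD, n = 4), 85.1% ± 13.6 (SD, n = 3) and 50.9% ± 16.4 (SD, n = 3). All 3 week 1 libraries were below every NSC and day 1 library.

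At L2 (chr17:68787001-68788000) NSC ran from 83.8% to 90.7% and day 1 from 80.6% to 91.2%. Week 1 libraries were at 61.1%, 25% and 81.9%. Only the last, which had 116 reads against 36 in each of the others, was close to the controls, and it overlapped the range of day 1. L3 (chr2:24111001-24112000) was nearly fully methylated in NSC and at day 1, with NSC at 92.5%, 91.7%, 96.7% and 100% and day 1 from 94.2% to 98.7%. Its 3 week 1 libraries were at 77.1%, 57.1% and 58.8%, all below every other library.

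L5 (chr8:36452001-36453000) was the one of the 8 with the most reads, 48 to 235 per library. NSC libraries were at 85.5%, 95.7%, 76.2% and 86.4%, day 1 libraries at 90%, 72.4%, 86.6% and 80.3%, and week 1 libraries at 66.9%, 49.2%, 62.5% and 55.3%. All 4 week 1 libraries lay below all 8 others, with means of 86.0% ± 7.98 (SD, n = 4), 82.3% ± 7.73 (SD, n = 4) and 58.4% ± 7.83 (SD, n = 4). The spread within each group was thus alike. L5 was chosen for a large difference without overlap, so nothing is read from the size of its difference of -27.5 points beside that spread. L4 (chr5:131587001-131588000) had an NSC mean of 93.6% ± 1.67 (SD, n = 3) and a day 1 mean of 93.4% ± 8.44 (SD, n = 4), beside 65.5% ± 16.4 (SD, n = 3) for week 1. L6, L7 and L8 (chr7:27935001-27936000, chr12:36725001-36726000 and chr10:73923001-73924000) had week 1 differences of -25.3, -25.2 and -24.8 points. With 5 reads per cytosine these were -12.2, -15.3 and -13.5, and L3 came to -18.6 from -30.9. Without week 1 replicate 3 the week 1 mean lay 16.1 points below NSC at L2, 15.9 at L6 and 13.4 at L8.

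**Figure D2:**
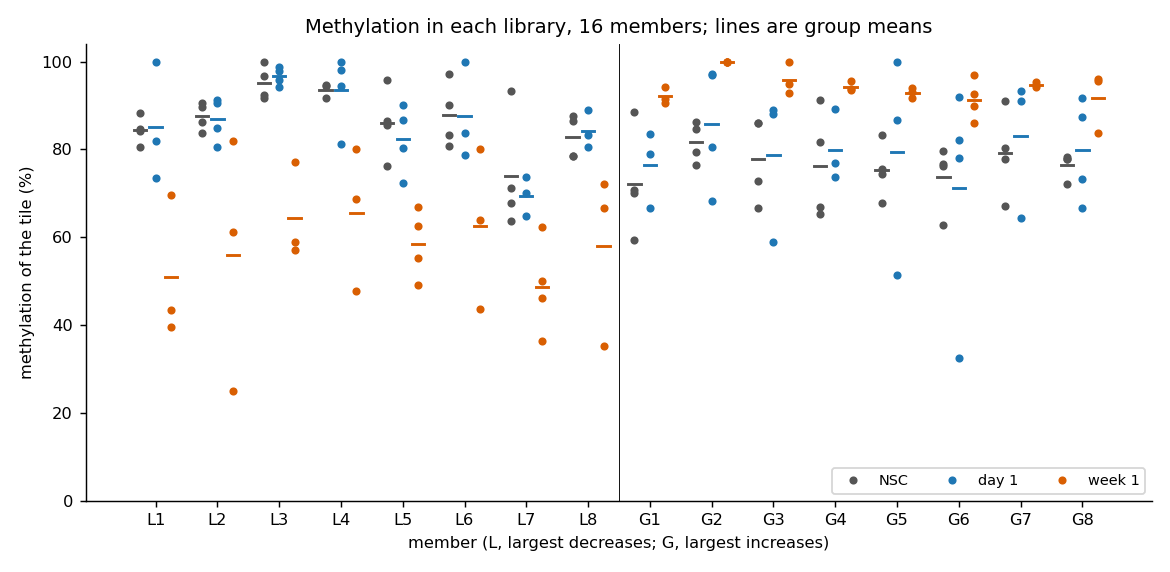
Methylation in percent of L1 to L8 and G1 to G8, with 1 point per library (grey NSC, blue day 1, orange week 1) and a line at each group mean. In the L tiles the orange points lie below the grey ones and are widely spread, most of all at L2 (25% to 81.9%); in the G tiles they sit between 83.7% and 100%.

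The increases of G1 to G8 were smaller than the decreases of L1 to L8, and their week 1 means lay between 91.3% and 100%. Over all members the median sizes were alike (19.0 and -18.9 points). At G2 (chr4:45804001-45805000) all 4 week 1 libraries were at 100%, each with 36 to 42 reads, while NSC libraries were at 86.3%, 79.4%, 76.3% and 84.7%. Day 1 libraries were split, at 97.0%, 80.6%, 68.3% and 97.1%, so that their mean of 85.7% ± 13.99 (SD, n = 4) lay near that of NSC although 2 libraries lay near week 1. At G1 (chr17:14384001-14385000) NSC ran from 59.4% to 88.5% and the week 1 libraries were at 90.6%, 91.4% and 94.3%, a mean of 92.1% ± 1.91 (SD, n = 3).

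Week 1 means were 95.9% ± 3.68 (SD, n = 3) at G3 (chr2:219347001-219348000) and 94.3% ± 1.13 (SD, n = 3) at G4 (chr12:33129001-33130000), from 77.9% ± 9.72 and 76.3% ± 12.5 (SD, n = 4 each) in NSC. At G5 (chr1:187949001-187950000) day 1 libraries spread from 51.5% to 100% around a mean of 79.4%, against 75.3% in NSC and 92.9% at week 1. At G6 (chr9:13977001-13978000) day 1 ran from 32.6% to 91.8%, so the small difference of -2.63 points between the means of day 1 and NSC hid a day 1 SD of 26.3. G7 and G8 (chr18:77577001-77578000 and chr13:47175001-47176000) had differences of 15.6 and 15.3 points, close to the limit of 15. G8 came to 8.61 when each cytosine was thinned to 10 reads, and G1 and G4 to 12.05 and 10.98 with 5 reads per cytosine.

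A day 1 mean near NSC therefore did not always mean day 1 libraries near NSC. The median SD over the members was 7.98 points in NSC, 8.43 at day 1 and 12.3 at week 1, against 3.83, 3.84 and 4.34 over all tiles. Other tiles chosen by a large difference were also more spread: the medians were 7.68, 7.66 and 7.41 over the 2175 tiles with a week 1 difference of 15 points, and 7.12, 7.22 and 12.2 over the 110 tiles that differed at day 1 alone. The week 1 SD was above 20 points in 20 members, 19 of them lower. It exceeded the NSC SD in 46 of the 62 lower members and in 9 of the 21 higher ones, and in 55.3% of all tiles.

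Tests over the whole table of tiles are given as background. With the edgeR quasi-likelihood test (called at 0.05 after Benjamini-Hochberg adjustment, with a difference of 10 points or more), 10 of the 83 members were called between week 1 and NSC, against 9.14% of all tiles. They were 9 lower members (background 2.36%) and 1 higher member (background 6.79%). NSC and week 1 libraries did not overlap in 35 members, against 19.9% of all tiles, of which 27 were lower (background 4.76%) and 8 higher (background 15.2%). Between day 1 and NSC edgeR called 0 of 83, against 15.1% of all tiles, and an unadjusted p was below 0.05 in 0 of 83 (background 32.4%); limma also called 0 (background 16.3%). Between week 1 and day 1 edgeR called 1 of 83, against 0.0139% of all tiles, which is 2 of 14380. Libraries of these groups did not overlap in 31 members (background 5.7%). The rule used or fixed each of these contrasts, so nothing is read from the members' counts. The name "changed only at week 1" describes group means: outside the 10 members of the first count, edgeR called none in any contrast. The limma test on percent called 14 of 83 between week 1 and NSC, all lower (background 11.7%), so the members called depend on the tool.

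Members with many cytosines show where within a tile the levels moved. The longest was chr7:132162001-132163000, with 13 cytosines and up to 693 reads per library. NSC libraries were at 70.0%, 47.4%, 67.1% and 62.5%, day 1 at 53.8%, 50.7%, 65.8% and 74.8%, and week 1 at 51.7%, 40.1%, 42.0% and 36.3%. The highest week 1 library was above the lowest NSC and day 1 libraries, so the groups overlapped. Day 1 replicate 5, at 74.8%, had 10 reads at only 5 of the 13 cytosines, and week 1 replicate 2 at 8. Averaged within cytosines the day 1 difference was -5.47 points, past the limit of 5, in place of -0.47. All 13 cytosines were lower at week 1 than in NSC, with differences from -34.1 to -8.35 points. They formed a cluster of 5 between 132162159 and 132162205 and one of 8 between 132162531 and 132162667. In the first cluster day 1 differences lay between -8.96 and 4.18 points. In the second they ran from -19.5 to 0.495, and position 132162665 went from 41.5% to 22.0% and 14.3%, so part of its difference was already there at day 1.

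The member with the most reads was chr18:68973001-68974000, with 9 cytosines and 385 to 3526 reads in every library but day 1 replicate 2, which had 41. NSC libraries were at 75.8%, 80.1%, 75.0% and 79.7%, day 1 at 80.8%, 75.6%, 84.2%, 76.6% and 78.8%, and week 1 at 58.0%, 54.4%, 49.4% and 65.2%. No week 1 library reached any other library, and the means were 77.6% ± 2.62 (SD, n = 4), 79.2% ± 3.44 (SD, n = 5) and 56.7% ± 6.66 (SD, n = 4). This is the member that edgeR called between week 1 and day 1, and the single member left when every cytosine had to be read in all 13 libraries. Its difference from NSC of -20.9 points came to -8.89 when the very deepest cytosines of each library were left out, below the limit of 15.

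Its cytosines did not behave alike. The 6 from 68973828 to 68973941 held at day 1 (differences from NSC of -3.84 to 5.10 points) and had week 1 differences of -27.5 to -13.7. The 2 at lower positions, 68973604 and 68973646, were lower at both times, with 42.2%, 19.2% and 18.05% at one and 61.4%, 46.6% and 37.3% at the other. The last, at 68973976, was 22.3 points higher at day 1 and 4.30 points higher at week 1. The next tile, chr18:68974001-68975000, had means of 85.2%, 65.7% and 53.3% and so was lower at day 1 as well. A decrease limited to week 1 thus held for the middle of this tile and not for its flanks.

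At chr15:78280001-78281000 the 5 cytosines between 78280202 and 78280247 had week 1 differences of -20.3 to -15.2 points, while the sixth, at 78280427, was 13.1 points higher. Library levels were 88.5%, 87.6%, 84.5% and 88.1% in NSC and 76.9%, 64.8%, 75.0% and 65.0% at week 1, with day 1 from 78.5% to 90.8%. Week 1 libraries lay below all others. The tile chr10:102130001-102131000 was lower at all 5 of its cytosines, with NSC from 45.3% to 72.1%, day 1 from 51.4% to 62.1% and week 1 from 35.4% to 46.5%. There the highest week 1 library passed the lowest NSC library.

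The higher member with most cytosines was chr3:2266001-2267000, where all 11, packed between 2266002 and 2266097, were higher at week 1 by 10.6 to 30.4 points. Its libraries overlapped: NSC stood at 28.8%, 46.3%, 22.5% and 15.3%, day 1 at 24.2%, 38.2%, 47.7% and 22.6%, and week 1 at 32.4%, 60.2%, 68.4% and 30.9%. Week 1 replicates 2 and 3 were above every NSC and day 1 library, and replicates 1 and 4 within their range. The preceding tile, chr3:2265001-2266000, had means of 38.2%, 43.5% and 61.8%, a week 1 difference of 23.6 points beside a day 1 difference of 5.35. It missed the list only by the day 1 limit. Without week 1 replicate 3 the member's difference of 19.7 points came to 12.9.

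Over all members 318 cytosines entered, and 288 (90.6%) differed in the direction of their tile. They did so at every cytosine in 61 of the 83 tiles. The rule used these same cytosines, so this agreement is largely fixed by it and nothing is read from it. Single cytosines could differ at day 1 although the tile did not: in 29 members at least 1 cytosine differed there from NSC by 15 points or more, 26 cytosines in the tile's week 1 direction and 12 against it. Just inside the 15 point limit lay chr7:127811001-127812000 (-15.1 points) and chr15:33941001-33942000 (-15.1), and just outside it lay chr3:156828001-156829000 (-14.9) and chr5:82002001-82003000 (-14.9). Without week 1 replicate 3, the 2 inside lay 5.89 and 9.72 points below NSC. At the 5 point limit chr13:82827001-82828000 (-4.998 points at day 1) and chr3:2266001-2267000 (4.95) were inside, and chr8:4848001-4849000 (-5.03) and chr2:224068001-224069000 (5.04) outside.

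Because each library counts only cytosines at which it has 10 reads, libraries of a tile can rest on different cytosines. In 45 of the 83 members every library with a value used all of the tile's cytosines. When the difference was instead taken at each cytosine and then averaged over the tile, an alternative chosen after seeing the data, 63 of 83 still differed by 15 points and 57 met both limits. In 6 members, 5 lower and 1 higher, it came to under 5 points. At chr4:50861001-50862000 the tile's difference was -19.1 points and the average within cytosines 0.95. One of its 4 cytosines was at 0% in all groups and the other 3 at 84.1% or more. Week 1 replicate 3 had 10 reads at 1 cytosine and a level of 0%, a count that allows up to 30.0%, while the other week 1 libraries used all 4 and were at 73.1%, 67.1% and 62.2%. At chr7:9310001-9311000 the difference likewise went from -21.9 to 1.6 points, where week 1 replicate 2 used 1 of 3 cytosines. At chr12:19080001-19081000 (-15.6 points, -3.96 within cytosines) week 1 replicate 4 had 0 methylated of 37 reads at 2 of the 7 cytosines, and the other week 1 libraries were at 90.7%, 88.0% and 85.3%.

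Week 1 libraries contributed unequally. Relative to the NSC mean of each tile, the median deviation over the lower members was -11.6 points in week 1 replicate 1, -21.6 in replicate 2, -26.1 in replicate 3 and -14.4 in replicate 4. Deviations of 15 points or more downwards occurred in 24 of 57, 28 of 45, 45 of 54 and 28 of 60 measured tiles, in the same order. In lower members with all 4 week 1 libraries, replicate 3 was the lowest in 16 of 30 (53.3%), against 33.4% of 9471 tiles. In the other tiles lower by 15 points or more it was the lowest in 66 of 319 (20.7%). Over all measured lower members replicate 3 also had the fewest reads, a median of 42 per tile against 48 to 90 in the others. The part of depth in this was not tested. Over the higher members the medians were 15.3, 22.1, 18.5 and 18.4 points, a narrower range.

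**Figure D3:**
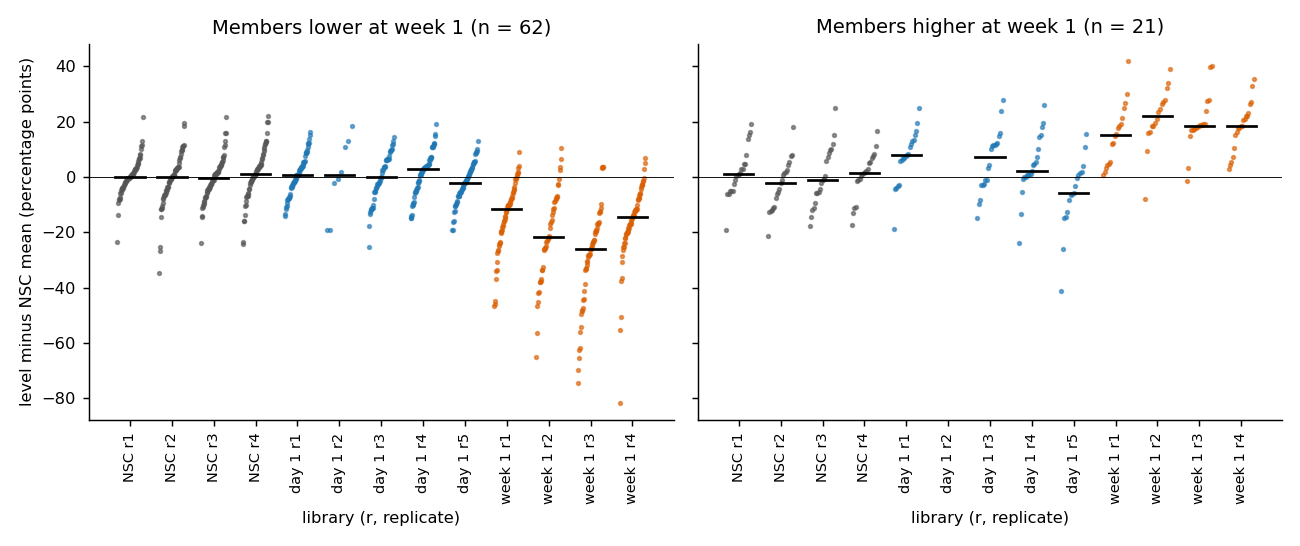
Level of each library minus the NSC mean of the tile, in percentage points, for the lower (left) and higher (right) members. Each point is 1 tile, sorted within its library, and black bars are medians; NSC and day 1 medians in the left panel lie between -2.07 and 2.91, and those of week 1 between -26.1 and -11.6.

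In 66 of the 83 members every measured week 1 library lay on the member's side of the NSC mean, and in 12 every one did so by 15 points. With 1 week 1 library left out at a time, the difference kept its sign in 80 members and stayed at 15 points or more in all such settings in 32. It dropped below 5 points in 7, all lower. At chr6:105266001-105267000, for example, week 1 replicate 3 was at 26.0% of 50 reads and the others at 66.7% and 82.5%, and the difference went from -17.1 to -0.95 points without it. At chr13:91888001-91889000 replicate 2 was at 33.3% of 30 reads and the others at 88.9% and 88.5%, and the difference went from -19.6 to -1.11.

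**Figure D4:**
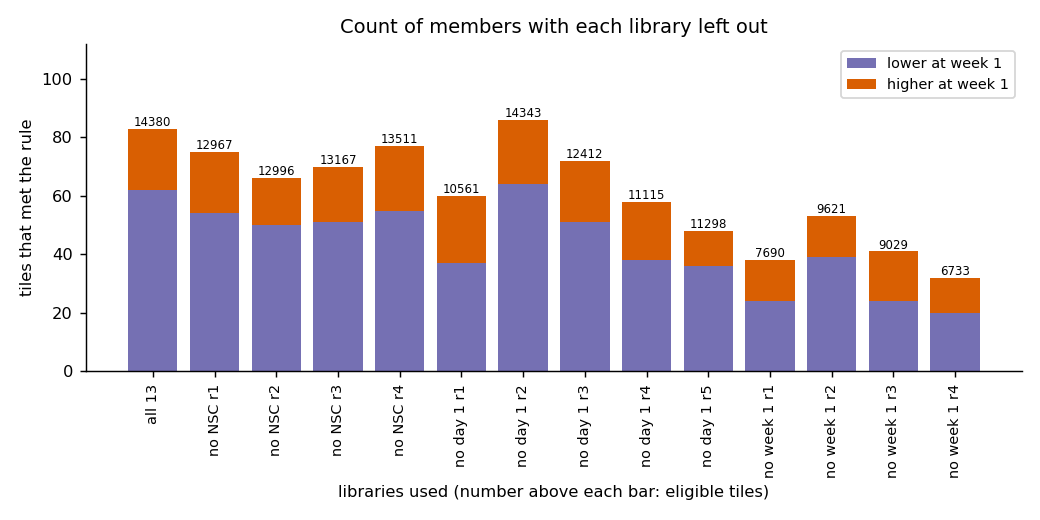
Number of tiles that met the rule with all 13 libraries and with each library left out, split into lower and higher tiles; the number above a bar is that of eligible tiles. Counts run from 32 to 86, and leaving out a library changes the number of eligible tiles as well.

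Applied anew without week 1 replicate 3, the rule found 41 tiles, 24 of them lower (58.5%), among 9029 eligible tiles. Without week 1 replicate 1, 2 or 4 it found 38, 53 and 32, and without day 1 replicate 5 it found 48. Leaving out any one NSC library gave 66 to 77, and leaving out day 1 replicate 2 gave 86. Lower tiles were the larger share in each of the 13 settings.

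Cytosines of the member tiles that were too shallow for the rule give further values, though they share libraries, and possibly reads, with those it used. With at least 5 reads in 2 libraries of each group, 172 of 282 such cytosines (61.0%) in lower members were lower at week 1, against 26.6% over all tiles. In higher members 64 of 95 (67.4%) were higher, against 37.7%. Over all tiles 24366 of 91731 such cytosines were lower and 34619 higher. The rest did not differ, which holds both all-tile shares down and widens their contrast with the members. The shares in the other tiles with a 15 point difference were 72.3% and 75.3%. Averaged per tile, 36 of 52 lower and 13 of 17 higher members had the sign of the tile. The median week 1 difference of these shallow cytosines was -5.55 points in lower and 13.3 in higher members. Their day 1 medians were 0.478 and 1.94. In the other tiles with a 15 point difference the week 1 medians were -14.97 and 14.8. Single tiles varied: the averages at day 1 and week 1 were -54.98 and -59.3 at L2, and 36.6 and 40.4 at G5. They were 11.3 and 1.49 at L3, and 0.857 and -7.55 at chr7:132162001-132163000.

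The shares differed with distance. Within 300 bp of a cytosine the rule had used, 162 of 260 (62.3%) in lower members and 60 of 77 (77.9%) in higher members differed in the direction of the tile. Beyond 300 bp, a split added after seeing the data, the counts were 10 of 22 in lower members, with 10 in the opposite direction, and 4 of 18 in higher members, with 4 opposite. Farther cytosines of the same tile thus showed as many differences one way as the other, but they came from only 14 lower and 4 higher members. Over all tiles, where many did not differ, 24.1% of such farther cytosines were lower and 33.0% higher. The shares also fell with distance in the other tiles with a 15 point difference, from 76.8% to 56.7% (lower) and from 79.0% to 58.0% (higher).

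**Figure D5:**
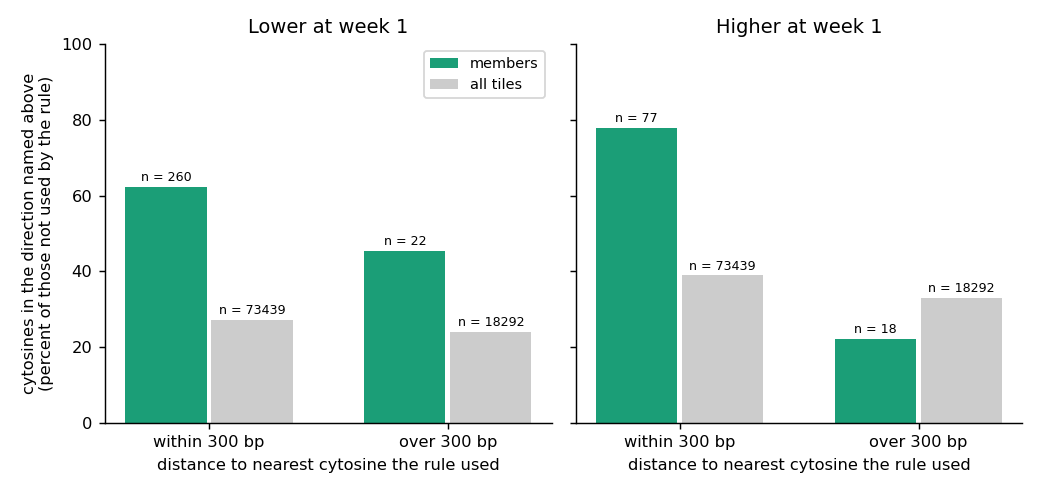
Percent of cytosines not used by the rule that were lower (left) or higher (right) at week 1 than in NSC, by distance to the nearest cytosine the rule used, in members (green) and in all tiles (grey). Near cytosines in members reach 62.3% and 77.9%, and those over 300 bp away 45.5% and 22.2%; the number of cytosines stands above each bar.

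Only 5 members had an eligible neighbouring tile. Those beside chr3:2266001-2267000 and chr18:68973001-68974000, described above, differed by 15 points in the same direction as the member. The tile after chr7:132162001-132163000 had means of 52.3%, 27.0% and 40.4%, lower at day 1 than at week 1. The neighbour of chr8:61653001-61654000 differed by -4.48 points and that of chr4:117676001-117677000 was at or near 0% in every group.

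Read depth was compared as the share of reads at eligible cytosines that fell in members. This share is not independent of the rule, because a library's reads at a cytosine below the minimum were not counted. Members had fewer reads than other tiles, and the operated groups had fewer than NSC, so the minimum can lower the share in shallower libraries. Its part in the differences was not tested, and nothing is read from the p-values below. The NSC mean was 0.390% ± 0.0203 (SD, n = 4). The day 1 mean was 0.294% ± 0.117 (SD, n = 5), and the week 1 mean 0.330% ± 0.0334 (SD, n = 4). Every week 1 library (0.290% to 0.367%) was below every NSC library (0.374% to 0.420%), and so was every day 1 library. The difference from NSC was -0.0605 at week 1 (exact two-sided permutation test, p = 0.0286, adjusted over 3 comparisons 0.0429) and -0.0957 at day 1 (exact permutation p = 0.0159, adjusted 0.0429). Week 1 and day 1 were not told apart (0.0352, exact permutation p = 0.905). With cytosines of at least 5 reads the differences from NSC were -0.0233 and -0.0308 and missed the threshold (adjusted exact permutation p = 0.0714 for both). With any one NSC library left out, both calls were lost (exact permutation p = 0.0571 at week 1, the smallest that 3 libraries against 4 allow, and 0.0357 at day 1, adjusted 0.0857 for both). With any one week 1 library left out, the week 1 call was lost in the same way.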

How the data were processed

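Rat oesophageal DNA was digested with MspI, selected to remove fragments above 300 bp and bisulfite-converted, per the labels' protocols. The submitters' processing notes name Bismark 0.23.0, methylKit 1.14.2, FastQC, Trim Galore and mRatBN7.2, without roles or order. The deposited files give, for each CpG cytosine with at least 5 reads, a count of methylated reads, a count of all reads and the percent methylated; percent was recomputed here from the deposited counts.

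Groups came from the labels' time field. Replicates were numbered in accession order and pair no samples. Nothing in the labels says that each sample is its own animal; a p-value then measures only how these samples vary, which may be technical. The members and lists were chosen with earlier results of these data known. The rule had 10 reads per cytosine in 3 libraries of each group, 3 cytosines per tile, and limits of 15 and 5 points. Named tiles were the 8 largest decreases and 8 largest increases without overlap of NSC and week 1, the 4 with most reads in their shallowest library, the 3 with most cytosines, and the 2 on each side of each limit. Other tiles, named for 1 library, for different cytosines or for their neighbours, were chosen after their values were seen. Promoters and gene lists were planned but not run, since no annotation of the files' build was used here.

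Methylated and unmethylated counts of all 14380 tiles were fitted with edgeR 4.0.16 (R 4.3.3; an effect per library, a common dispersion, all 3 groups), with limma 3.58.1 on percent as an alternative. On simulated counts for the 14380 tiles of the week 1 and NSC comparison, edgeR called 0 of 100 tiles given a log2 odds ratio of 1. It called 8 of 100 given 2. Of these tiles 34 and 85 had an unadjusted edgeR p below 0.05, and 0 unchanged tiles were called. Only these tiles were changed, all of intermediate mean level, with a spread between libraries that was set beforehand. An adjusted call is harder to reach when few tiles change, and edgeR called 1315 tiles in the real comparison. The simulated rates therefore do not give the share of changes missed among the real tiles. Python 3.11.15, numpy 2.4.6, pandas 2.3.3, scipy 1.17.1 and matplotlib 3.10.9 did the rest. Alternatives varied reads, libraries, cytosines, tile size and start, weighting, very deep cytosines, thinning, centring, both limits and each library. Averaging within cytosines and the split at 300 bp were added after seeing the data.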

Additional observations from a re-analysis of the deposited data

Results flagged for a closer look

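Of 49 groups of 4 or 5 library values examined, 2 held a library far from the others, and chance gives about 1 in 20. At G8 (chr13:47175001-47176000) NSC replicate 3 was at 72.2% of 72 reads, while the other NSC libraries lay between 77.8% and 78.3%. The share of reads in members was 0.0866% in day 1 replicate 2, the shallowest library, and 0.325% to 0.358% in the other day 1 libraries. Without that library week 1 lay below day 1 in this share, by -0.0167.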

How the results depend on the processing

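No paired analysis was possible because replicate numbers follow accession order only. With 500 bp or shifted tiles, equal weighting, very deep cytosines left out, thinning, centring or averaging within cytosines, 75 to 98 tiles met the rule, against 83, but thinning kept 42 of the 83, centring 37 and averaging within cytosines 57. The count, with higher, lower and non-overlapping tiles, was 607, 244, 363 and 159 at 5 reads per cytosine (31 of the 83 among them), 6, 1, 5 and 5 at 20 reads, 1, 0, 1 and 1 with all 13 libraries, and 13, 4, 9 and 2 at 5 cytosines per tile. It was 269, 99, 170 and 75 with a week 1 limit of 10 points, 11, 0, 11 and 7 with 25, 42, 6, 36 and 16 with a day 1 limit of 3, and 176, 82, 94 and 86 with 10. Leaving out 1 library gave 32 to 86, 12 to 23, 20 to 64 and 18 to 43. Apart from weighting, thinning, centring, averaging within cytosines and the limits, each setting also changes which tiles are eligible; the cause was not tested.

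Over all tiles edgeR called 1315 between week 1 and NSC, 722 with a difference of 25 points, 3093 at 5 reads, 461 at 20 reads, 516 at 5 cytosines, and 644 to 1351 without 1 library. For day 1 and NSC the counts were 2178, 981, 5828, 664, 813 and 1304 to 2173. For week 1 and day 1 they were 2, 1, 0 (with 3999 at an unadjusted p below 0.05), 5, 1 and 0 to 3, and limma called 4. Cytosines over 300 bp from those used differed in the tile's direction in 45.5% (lower) and 22.2% (higher). Read share differences were -0.0233 (week 1) and -0.0308 (day 1) from NSC at 5 reads. Without 1 library they ran from -0.0729 to -0.0473 and from -0.112 to -0.0437, and for week 1 minus day 1 from -0.0167, without day 1 replicate 2, to 0.0512. Differences of the 24 members named by rule kept their sign in every setting that gave one, but several changed by over 1.5 times. These were chr18:68973001-68974000 (-20.9 to -8.89 without very deep cytosines), G8 (15.3 to 8.61 thinned), and at 5 reads L3 (-18.6), L6 (-12.2), L7 (-15.3), L8 (-13.5), chr13:82827001-82828000 (-14.2), G1 (12.05) and G4 (10.98). Those that changed as much without week 1 replicate 3 are L2, L6, L8, chr3:2266001-2267000, chr7:127811001-127812000 and chr15:33941001-33942000, given above. Depth limits the members at week 1, with a median of 55 reads per tile and library and all 4 libraries in 39 of 83, and at day 1, with all 5 libraries in 8.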
